A study of Mus musculus with 12 samples.

Results

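The genes described here are the 10 members of the LIF and STAT3 pathway *Lif*, *Lifr*, *Il6st*, *Stat3*, *Socs1*, *Socs2*, *Socs3*, *Pim1*, *Pim3* and *Bcl3*, picked by gene symbol from the 20325 genes of the files. All 10 had at least 10 counts in at least 3 libraries and so entered the test, as did 13400 genes in all. They were measured by RNA sequencing in mouse pre-iPSCs, a partially reprogrammed iPSC line with ESC-like morphology. The cells came from Nanog-GFP fibroblasts transduced with pMX retroviruses for Oct4, Sox2, c-Myc and Klf4, were picked as colonies without GFP, and carry these transgenes in all conditions. They were kept on irradiated feeders and treated without the feeder layer, in ESC medium, which holds serum and LIF per the methods, so that LIF protein was supplied in every condition. For 48 h they received DMSO (the control), AA (ascorbic acid, 50 ug/ml), 2i (1 uM of the MEK inhibitor PD0325901 and 3 uM of the GSK inhibitor CHIR99021) or AA+2i, with 3 biological replicates A, B and C each, 12 libraries in all.

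LIF is a cytokine of the interleukin-6 family that keeps mouse pluripotent cells from differentiating. It binds the LIF receptor, encoded by *Lifr*, which pairs with the shared signalling subunit gp130, encoded by *Il6st*, and the JAK kinases bound to this pair phosphorylate the transcription factor STAT3. STAT3 then enters the nucleus and induces genes that include those of the SOCS proteins, which bind the receptors or the JAK kinases and damp the signal, and those of the PIM kinases. The same receptors also feed the MEK and ERK kinases, and MEK is the target of PD0325901.

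A STAT dimer binds a palindrome of the form TTCNNNGAA, which reads the same on both strands. It was searched in the 250 bases before each start site in RefSeq (GRCm38.p6, a build other than the mm9 of the files). Of 32851 promoters, 2306 held it (7.02%). RefSeq gave 11 windows for 9 of the genes and none for *Socs2*, and the match stood in the window of 1 gene, *Socs3*, where it read TTCTTAGAA and began at position -154 from the start. Both sequences below are shown because *Socs3* is the most abundant of the genes and the one with the match, and *Pim1* is one of the genes whose RNA changed. Capitals mark the match.
Socs3, chr11:117969367-117969616, minus strand: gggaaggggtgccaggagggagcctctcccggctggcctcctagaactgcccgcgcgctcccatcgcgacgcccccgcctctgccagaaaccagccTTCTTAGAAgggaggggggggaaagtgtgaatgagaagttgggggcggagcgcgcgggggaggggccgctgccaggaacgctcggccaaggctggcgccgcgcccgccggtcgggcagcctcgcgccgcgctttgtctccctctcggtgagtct
Pim1, chr17:29490535-29490784, plus strand: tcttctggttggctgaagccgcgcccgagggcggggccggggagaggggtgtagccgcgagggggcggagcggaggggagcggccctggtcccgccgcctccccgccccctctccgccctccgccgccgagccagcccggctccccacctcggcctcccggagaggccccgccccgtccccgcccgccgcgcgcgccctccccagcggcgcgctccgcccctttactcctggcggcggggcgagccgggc
No match in a window says only that these letters were not there. The *Socs3* window had 71.6% GC and the *Pim1* window shown 82.4%, while another RefSeq window of *Pim1*, downstream, had 48.0%.

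The sums of expected counts per library ran from 16173322 to 54392719, with a median of 21854761. Of the genes that report on the inhibitors, *Dusp6*, a phosphatase gene induced by ERK, had a mean TPM (expression scaled per transcript length and per library) of 62.5 ± 8.65 (SD, n = 3) with DMSO and 6.89 ± 0.233 with 2i. Its log2 change was -3.0 (SE 0.21, adjusted p = 4.63e-05, edgeR). *Axin2*, a target of beta-catenin, rose from 0.14 ± 0.08 to 6.76 ± 5.24 (log2 5.83, adjusted p = 0.00202). Of 6 such genes for MEK, 2 were called lower with 2i, *Dusp6* and *Spry4*, beside 2.83% of all tested genes. Of 4 for GSK, 3 were called higher, *Axin2*, *Sp5* and *Nkd1*, beside 1.59%. *Egr1*, of the MEK genes, ran from 31.95 to 116 TPM in DMSO and from 0.35 to 54.8 TPM in AA+2i. That difference did not pass (log2 -1.26, adjusted p = 0.47). The epithelial genes *Cdh1* and *Epcam* were expressed in every library, and *Cdh1* rose with AA (log2 1.13, adjusted p = 0.018). Of the same marker list, *Fut4* stayed at 0.12 TPM or less. *Fut9* had mean TPM of 23.4, 12.1, 10.2 and 7.52 with DMSO, AA, 2i and AA+2i. Its difference with AA went the other way from *Cdh1* and did not pass (log2 -0.93, adjusted p = 0.824). The summed TPM of 6 markers of pluripotent cells was 97.4 to 176 for DMSO, 323 to 438 for AA, 32.8 to 41.3 for 2i and 170 to 208 for AA+2i. Most of this sum was *Tdgf1*, with means of 123, 354, 28.1 and 127, which fell with 2i (log2 -1.97, adjusted p = 0.00257). From AA to AA+2i *Tdgf1* fell as well (log2 -1.3, adjusted p = 0.0146), whereas *Esrrb* (2.05, adjusted p = 0.0293) and *Dppa3* (3.28, adjusted p = 0.0121) rose. The sum therefore does not stand for each marker of the list. Of 8 fibroblast markers *Lum* was at 0 throughout and the summed TPM ranged from 3.48 to 11.2 in DMSO, 8.05 to 18.9 in AA, 4.24 to 4.72 in 2i and 6.83 to 9.35 in AA+2i. The means of *Thy1* were 5.13, 12.6, 1.15 and 3.8, and its fall with 2i missed the threshold (log2 -1.97, adjusted p = 0.0601) but passed by DESeq2. *Col3a1*, at 0.64 TPM or less, was called higher with AA+2i than with DMSO (log2 2.25, adjusted p = 0.0205) and than with AA (2.33, adjusted p = 0.0193). Of 4 macrophage markers *Emr1* was at 0 and *Ptprc* at or near 0, *Cd68* stood at 9.56 to 28.7 TPM, and *Csf1r*, at 0.34 TPM or less, missed the threshold with 2i (log2 2.32, adjusted p = 0.0792) but passed it with a correction for the GC content of transcripts (log2 2.21, adjusted p = 0.0341) and by DESeq2. The part of these markers in the results was not tested. In such bulk samples, fewer cells of a kind and less RNA per cell cannot be told apart.

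In the edgeR fit without a correction for GC content, 2 of the 10 genes changed, both with 2i. *Socs2*, which encodes an inhibitor of cytokine and growth hormone receptors, fell from a mean TPM of 91.8 ± 16.3 to 37.3 ± 4.86, and *Pim1*, a kinase gene and textbook STAT target, from 36.9 ± 11.1 to 15.6 ± 3.96 (SD, n = 3). With 2.83% of all tested genes lower with 2i at the same threshold (4.42% in either direction), these were 2 of 10. The transcription factor itself, *Stat3*, stayed within 69.5 to 119 TPM over all 12 libraries, and in that fit no difference of the ligand gene or of the receptor genes passed the test.

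**Figure D1:**
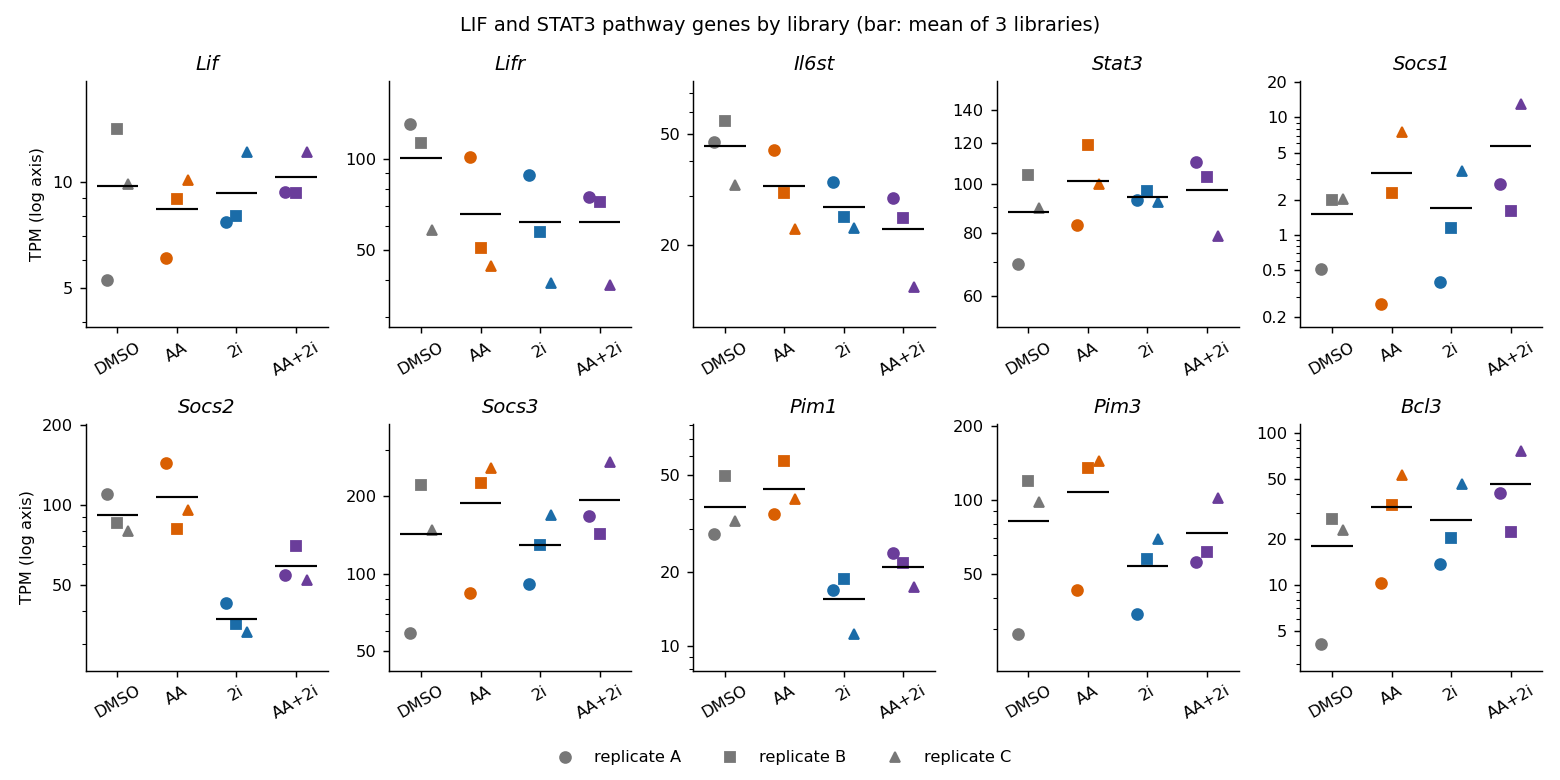
TPM of the 10 genes on log axes in the 12 libraries, grouped by DMSO, AA, 2i and AA+2i. Circles, squares and triangles are replicates A, B and C, and bars are means of 3 libraries. The 6 libraries with 2i lie below the 6 without it for *Socs2* and *Pim1*, as for 5.64% of all tested genes. For *Socs3*, *Pim3* and *Bcl3* replicate A is the lowest with DMSO, AA and 2i.

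By mean TPM with DMSO, which compares genes per length, the order was *Socs3* (142 ± 80.6), *Lifr* (101 ± 38.2), *Socs2* (91.8 ± 16.3), *Stat3* (87.7 ± 17.4), *Pim3* (82.2 ± 47.7), *Il6st* (45.1 ± 11.5), *Pim1* (36.9 ± 11.1), *Bcl3* (18.1 ± 12.3), *Lif* (9.75 ± 4.43) and *Socs1* (1.51 ± 0.866). Neighbours in this order overlapped within 1 SD, except *Lif* and *Socs1*. *Socs3* came first and *Lif* and *Socs1* last in all 4 conditions. *Socs2* was the third with DMSO and with AA and the fifth with 2i and with AA+2i.

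The dependence of read numbers on base composition differed between these libraries, and 5 of the genes sit where it matters. The transcripts of *Socs3* (58.7% GC), *Pim1* (60.6%), *Pim3* (62.0%), *Bcl3* (62.6%) and *Socs1* (63.6%) are rich in G and C, whereas *Lifr* (44.4%), *Socs2* (45.4%), *Il6st* (48.4%), *Stat3* (52.5%) and *Lif* (53.0%) lie lower. Over all genes with the GC content of those 5, the curve of log2 CPM (counts scaled to library size), as a difference from the 12-library mean, ran from -2.1 to -1.43 in DMSO A, from -2.02 to -1.26 in AA A, and from 0.96 to 1.6 in AA+2i C. At the GC content of the other 5 the curves spanned -0.41 to 0.6. The comparisons were therefore also fitted with the curve of each library as an offset, called the GC correction. The curve also differed between the conditions of a letter. At the GC content of *Pim3* it went from -1.9 in DMSO to 0.6 in AA+2i in A and from -0.18 to 1.39 in C, but from 0.46 to -0.13 in B. The offset can thus remove or add a difference between conditions, and which fit is nearer the truth was not tested.

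*Lif*, on chr11:4157560-4172517 (mm9, plus strand), encodes the ligand, which the cells also received in the medium. Its TPM was 5.28, 14.1 and 9.85 in DMSO A, B and C, 6.09, 8.96 and 10.1 in AA, 7.68, 8.02 and 12.1 in 2i, and 9.37, 9.31 and 12.1 in AA+2i. All 4 conditions overlapped, and the lowest and the highest library were both DMSO. The log2 change with 2i was 0.17 (SE 0.36, adjusted p = 0.814, edgeR) and that with AA+2i 0.35 (SE 0.36, adjusted p = 0.515), and with the GC correction these were 0.03 and 0.14 (SE 0.23 each).

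*Lifr*, on chr15:7079559-7147489 (plus strand), encodes the receptor subunit that binds LIF. TPM was 131, 114 and 58.2 in DMSO, 102, 51.0 and 44.4 in AA, 89.0, 57.5 and 39.0 in 2i, and 74.9, 72.3 and 38.4 in AA+2i. Replicate A was the highest and replicate C the lowest in each condition, and all conditions overlapped, while within each letter the treated libraries lay below the DMSO library. The log2 differences from DMSO were -0.59 in AA, -0.63 in 2i and -0.56 in AA+2i (SE 0.42 each, adjusted p = 0.865, 0.501 and 0.379, edgeR), and -0.46, -0.42 and -0.18 with the GC correction, none of which passed.

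*Il6st*, on chr13:113265216-113297068 (plus strand), encodes gp130, which passes on the signals of LIF and its relatives. TPM was 46.9, 55.6 and 32.8 in DMSO, 43.9, 30.8 and 22.9 in AA, 33.8, 25.1 and 23.0 in 2i, and 29.6, 25.1 and 14.1 in AA+2i. The 3 AA+2i libraries lay below the 3 DMSO libraries, as 15.7% of all tested genes did in log2 CPM, whereas the AA and the 2i libraries overlapped with them. The log2 difference of AA+2i from DMSO was -0.78 (SE 0.27, adjusted p = 0.103, edgeR), which did not pass, and -0.66 (SE 0.2, adjusted p = 0.0388) with the GC correction, which did. That call was lost without B (-0.47, adjusted p = 0.333) and without C (-0.65, adjusted p = 0.0569). Over all tested genes 8.34% passed in this comparison without the correction, and 19.6% with it (4.41% and 10.7% lower). Each of the single treatments gave a smaller difference, -0.44 with AA and -0.53 with 2i (SE 0.27 each, adjusted p = 0.764 and 0.37).

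*Stat3*, on chr11:100746412-100800854 (minus strand), encodes the transcription factor and had the smallest ratio of highest to lowest TPM of the 10 genes. TPM was 69.5, 104 and 89.4 in DMSO, 83.0, 119 and 99.9 in AA, 92.9, 96.7 and 92.0 in 2i, and 110.2, 103 and 78.7 in AA+2i. In TPM the conditions overlapped throughout. In log2 CPM the 3 libraries with 2i and the 3 with AA+2i lay above those with DMSO, as 9.27% and 15.4% of all genes did, and after the GC curve was removed those with 2i still did, as did 13.2% of all genes. Its log2 differences from DMSO were 0.24, 0.3 and 0.36 with AA, 2i and AA+2i (SE 0.19 each, adjusted p = 0.891, 0.487 and 0.255, edgeR), and 0.14, 0.18 and 0.19 (SE 0.12 each) with the GC correction. These values are RNA levels, and the phosphorylation of STAT3 was not measured in these files.

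*Socs2*, on chr10:94847996-94879814 (minus strand), responded to 2i. Its TPM was 110.4, 85.3 and 79.8 in DMSO, 144, 81.5 and 95.4 in AA, 42.7, 35.6 and 33.4 in 2i, and 54.8, 70.2 and 52.2 in AA+2i. All 6 libraries with 2i, from 33.4 to 70.2, lay below all 6 without it, from 79.8 to 144, a separation that 5.64% of the tested genes showed in this direction. In counts scaled by the RLE factors (a median of ratios between libraries) both sets met, with 75.1 CPM in AA+2i B and 75.0 in DMSO B.

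The log2 change of *Socs2* with 2i was -1.12 (SE 0.23, adjusted p = 0.0185, edgeR), with differences of -1.34, -0.89 and -1.05 in letters A, B and C. With the GC correction it was -0.92 (SE 0.14, adjusted p = 0.00149). Left without replicate A the change was -0.97 (adjusted p = 0.0453), without B -1.21 (adjusted p = 0.267) and without C -1.15 (adjusted p = 0.235), so that the call was lost without B and without C. On top of AA, in libraries that these values do not share, 2i gave a log2 difference of -0.64 (SE 0.22, adjusted p = 0.141), and -0.43 (SE 0.14, adjusted p = 0.0598) with the correction, so that neither passed. In the other direction, *Socs2* was higher with AA+2i than with 2i, by 0.7 on the log2 scale (SE 0.22, adjusted p = 0.227) without the correction and by 0.84 (SE 0.14, adjusted p = 0.00605) with it, where the call was reached and 3.22% of all genes were called higher. That call was lost without A (0.9, adjusted p = 0.0532) and without B (0.84, adjusted p = 0.231), and that of 2i against DMSO without B (-0.91, adjusted p = 0.0865). The interaction, the departure of AA+2i from the sum of both single changes on the log2 scale, was 0.48 (SE 0.32, adjusted p = 1.0), so that the response to 2i was not shown to differ with and without AA.

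*Socs3*, on chr11:117827393-117831361 (minus strand), encodes the inhibitor that binds gp130 and JAK, and is the classical feedback gene of STAT3. TPM was 59.1, 220.1 and 147 in DMSO, 84.3, 225 and 256 in AA, 91.2, 129 and 168 in 2i, and 167, 142 and 270.1 in AA+2i. The spread within a condition exceeded that between the means of the conditions, with the letter A lowest in 3 of 4 conditions. The log2 difference of 2i from DMSO was 0.11 (SE 0.52, adjusted p = 0.919, edgeR), and the sign turned with the GC correction, to -0.35 (SE 0.12, adjusted p = 0.0806).

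The deviations of *Socs3* between libraries followed the curve of all genes at its GC content. Its SD over the 12 libraries was 0.72 in log2 CPM and 0.23 after the curve was removed. In CPM with the curve removed, *Socs3* stood at 218, 205 and 215 in DMSO, 253, 247 and 235 in AA, 174, 168 and 159 in 2i, and 177, 205 and 234 in AA+2i. On that scale the 3 libraries with 2i alone lay below the 3 with DMSO, as 15.1% of all genes did, and those with AA above them, as 8.66% did.

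*Socs1*, on chr16:10783901-10785629 (minus strand), encodes an inhibitor of the JAK kinases and was the least abundant of the 10 genes, with 3 to 206 counts per library. TPM was 0.51, 2.00 and 2.02 in DMSO, 0.26, 2.26 and 7.57 in AA, 0.40, 1.14 and 3.53 in 2i, and 2.73, 1.61 and 12.9 in AA+2i. Replicate C was the highest in every condition, and all conditions overlapped. The log2 differences of AA+2i were 2.24 from DMSO (SE 1.16, adjusted p = 0.248, edgeR) and 1.86 from 2i (SE 1.15, adjusted p = 0.823), and neither passed. With the GC correction they were 0.81 (SE 0.58) and 1.32 (SE 0.55), and without replicate C the difference from DMSO was 0.93 in the uncorrected fit. After removal of the GC curve its SD over the libraries fell from 1.52 to 0.74.

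*Pim1*, on chr17:29627757-29632390 (plus strand), had a TPM of 28.6, 49.4 and 32.5 in DMSO, 34.6, 57.2 and 39.9 in AA, 17.0, 18.7 and 11.2 in 2i, and 23.9, 21.9 and 17.4 in AA+2i. Every library with 2i, at 11.2 to 23.9, was below every library without it, at 28.6 to 57.2, as held for 5.64% of the tested genes. Its log2 change with 2i was -1.04 (SE 0.26, adjusted p = 0.0487, edgeR), with differences of -0.73, -1.03 and -1.35 in letters A, B and C. When 2i was added to AA the log2 difference was -0.89 (SE 0.26, adjusted p = 0.0715), which did not pass, and between AA+2i and DMSO it was -0.59 (SE 0.26, adjusted p = 0.189). DESeq2 called the difference between AA+2i and AA. The call with 2i lay close to the threshold. It was lost with the TMM factors (-1.04, adjusted p = 0.0561) and without any 1 of the replicates, at -1.17 without A (adjusted p = 0.0994), -1.04 without B (0.402) and -0.91 without C (0.395).

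With the GC correction the *Pim1* difference of 2i from DMSO was larger, -1.68, but its error too (SE 0.62, adjusted p = 0.106), and the call was lost. The corrected differences of AA+2i from AA and from DMSO were -1.7 and -1.67 (SE 0.61 each, adjusted p = 0.0883 and 0.0781). The other 4 genes rich in G and C varied less between libraries once the curve was removed, and *Pim1* more. In DMSO A, where the curve at its GC content was -1.72, *Pim1* deviated by 0.09 from its mean, and in AA+2i C, with the curve at 1.21, by -0.33. Removing the curve widened its SD over the 12 libraries from 0.59 to 1.15 in log2 CPM. On the corrected scale *Pim1* stood at 82.3, 27.3 and 31.8 CPM with DMSO and at 22.7, 15.3 and 5.89 with 2i, and the groups again did not overlap.

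*Pim3*, on chr15:88692616-88696150 (plus strand), encodes a related kinase. TPM was 28.5, 120 and 98.7 in DMSO, 43.1, 136 and 145 in AA, 34.3, 57.7 and 69.4 in 2i, and 56.1, 61.7 and 102 in AA+2i. Replicate A was the lowest library of each condition, and all conditions overlapped. Its log2 difference with 2i was -0.37 (SE 0.57, adjusted p = 0.748, edgeR) without the correction.

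With the GC correction *Pim3* was lower with 2i by a log2 change of -1.0 (SE 0.26, adjusted p = 0.0254, edgeR), where 7.43% of all genes were called lower. When 2i was added to AA its log2 change was -1.07 (SE 0.26, adjusted p = 0.0153), where 8.51% were lower, and from DMSO to AA+2i it was -0.91 (SE 0.26, adjusted p = 0.0267), with 10.7% lower. Each of these calls was lost when any 1 letter was left out, with values of -1.35 to -0.67 and adjusted p of 0.0688, 0.0956 and 0.211 without A, B and C for 2i against DMSO, 0.153, 0.0624 and 0.0657 for AA+2i against AA, and 0.146, 0.0529 and 0.172 for AA+2i against DMSO. Without the correction the last difference had the other sign, 0.11 (SE 0.57). On the corrected scale *Pim3* ran from 45.6 to 83.6 CPM in the 6 libraries with 2i and from 88.3 to 165 CPM in the 6 without, and it was the only one of the 10 genes to separate them there, where 6.58% of all genes did so in this direction. Its SD over the libraries was 0.78 before and 0.63 after the curve was removed.

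*Bcl3*, on chr7:20393811-20408119 (minus strand), encodes a nuclear member of the IkB family that acts with NF-kB subunits and is a STAT3 target in pluripotent cells. TPM was 4.10, 27.1 and 22.9 in DMSO, 10.3, 33.9 and 53.2 in AA, 13.6, 20.3 and 46.4 in 2i, and 40.3, 22.3 and 76.2 in AA+2i. The conditions overlapped, and the lowest libraries were DMSO A and AA A. The log2 difference of AA+2i from DMSO was 1.66 (SE 0.81, adjusted p = 0.225, edgeR) and 0.53 (SE 0.21, adjusted p = 0.0977) with the GC correction. Its SD over the 12 libraries fell from 1.21 to 0.36 once the curve was removed, where it stood at 14.9 to 24.5 CPM with DMSO and 23.0 to 30.9 CPM with AA+2i.

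**Figure D2:**
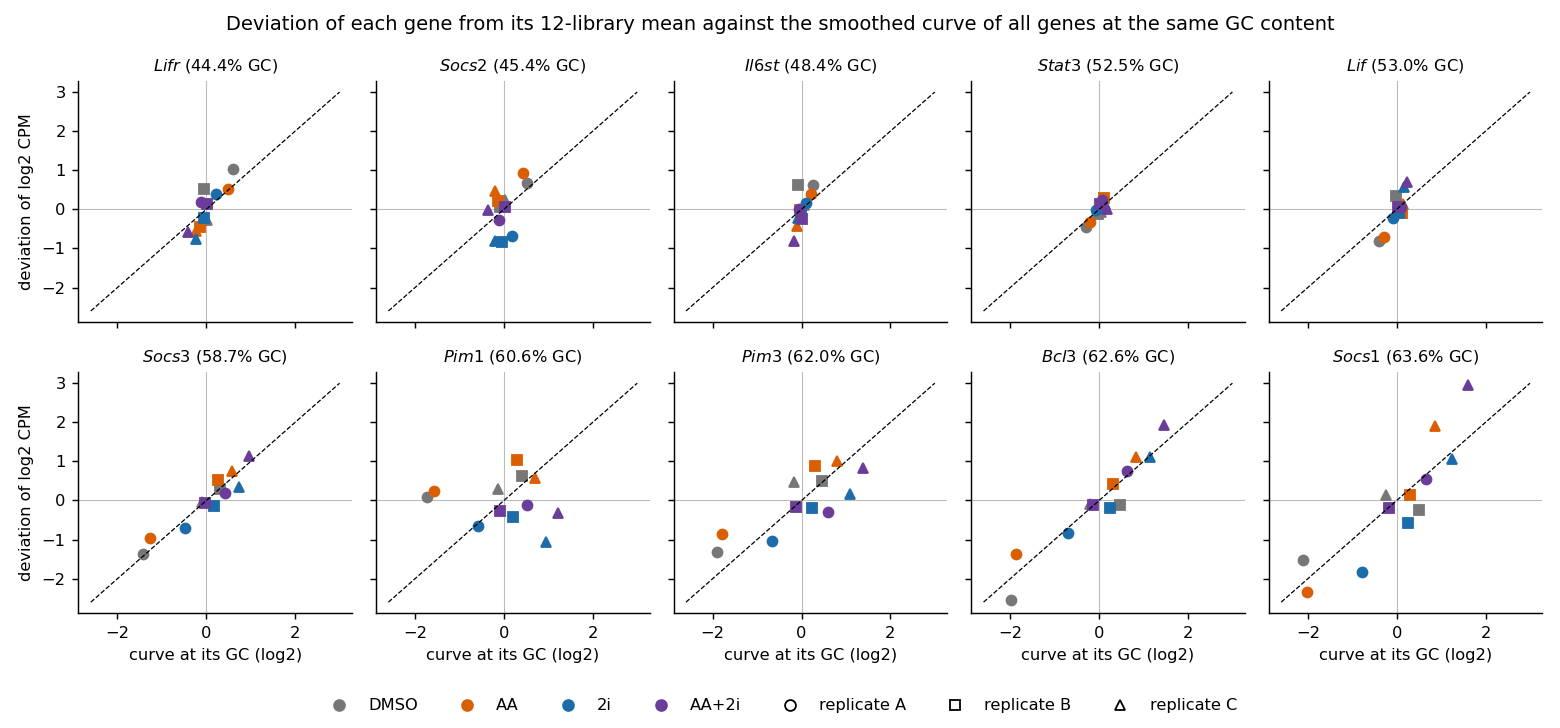
Deviation of log2 CPM of each gene from its 12-library mean (vertical axis) against the smoothed curve of all genes at the same GC content in the same library (horizontal axis, log2), ordered by GC content. Colours are conditions, shapes are replicates, and the dashed line marks equality. *Socs3* and *Bcl3* run along the line from DMSO A to AA+2i C. *Socs1* rises with the curve but strays further from the line, with 2.96 in AA+2i C where the curve is at 1.6. *Pim1* does not follow the line, with 0.09 in DMSO A where the curve is at -1.72.

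In the other comparisons the edgeR fit without the GC correction called none of the 10 genes. With AA against DMSO 0 of the 10 genes passed edgeR's test, with 0 at an unadjusted p under 0.05 and 0 by DESeq2 or limma, where 1.34% of all genes passed and 9.43% were under 0.05 unadjusted. With AA+2i against DMSO it was 0, with 2 at an unadjusted p under 0.05 (*Il6st* and *Pim1*) and 0 by DESeq2 or limma, beside 8.34% of all genes called and 24.8% under 0.05 unadjusted. The GC correction called *Il6st* and *Pim3* there, *Pim3* against AA and *Socs2* against 2i. With AA+2i against AA, where 6.1% of all genes passed and 17.0% did so unadjusted, it was again 0, with 2 unadjusted (*Socs2* and *Pim1*) and 1 by DESeq2, *Pim1* at an adjusted p of 0.0149, and 0 by limma. With AA+2i against 2i (0.91% of all genes, 9.53% unadjusted) it was 0, with *Socs2* the 1 gene under 0.05 unadjusted and 0 by DESeq2 or limma. The interaction was passed by 2 of all genes (0.0149%) and by 0 of the 10, with 0 unadjusted and 0 by DESeq2 or limma. For 2i against DMSO the median log2 difference of the 10 genes was -0.13, beside -0.02 over all tested genes, and -0.45 beside -0.01 with the GC correction. The 10-gene medians for AA and for AA+2i against DMSO were 0.27 and 0.23, and 0.15 and -0.06 with the correction, beside medians of all genes from -0.02 to -0.01.

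**Figure D3:**
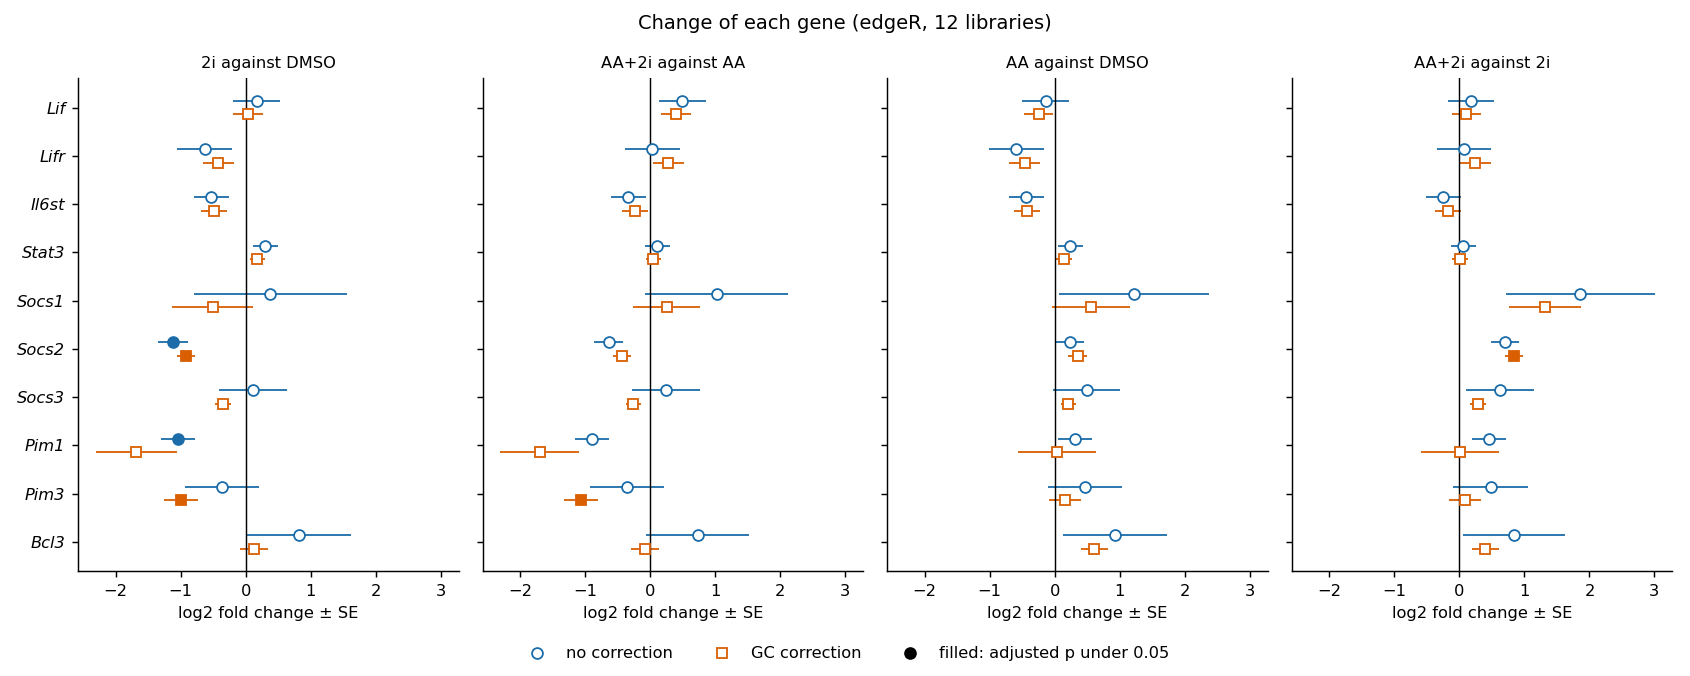
Log2 fold change with its SE for each gene in 4 comparisons (edgeR, 12 libraries), without (blue circles) and with (orange squares) the GC correction. Filled symbols passed at an adjusted p under 0.05. *Socs2* is filled in both fits with 2i against DMSO, *Pim1* only without and *Pim3* only with the correction, which narrows the error of *Socs3* from 0.52 to 0.12 and widens that of *Pim1* from 0.26 to 0.62.

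Genes that act beside the 10 were followed as lists. Among 15 other gp130 ligands and receptors, 10 were tested. With 2i, where 4.42% of all tested genes passed (2.83% lower), 1 of the 10 changed. This was *Osmr*, which encodes the oncostatin M receptor subunit that pairs with gp130, as *Lifr* does for LIF. Its TPM fell from 58.6 ± 21.6 with DMSO to 18.6 ± 5.77 with 2i (log2 change -1.46, SE 0.36, adjusted p = 0.0464, edgeR) and to 14.3 ± 4.35 with AA+2i (log2 change -1.83, SE 0.37, adjusted p = 0.0111). With AA+2i 8.34% of all tested genes passed against DMSO (4.41% lower). With AA the TPM of *Osmr* was 36.9 ± 18 and did not pass (adjusted p = 0.701). Both calls were also made with the GC correction (adjusted p = 0.00351 and 0.000874). Leaving out a replicate gave -1.5 without A, -1.35 without B and -1.52 without C with 2i (adjusted p = 0.0931, 0.642 and 0.0944), and with AA+2i the call was lost without B (-1.85, adjusted p = 0.254). With the GC correction 2 of the list passed as lower with 2i, *Osmr* and *Il11ra1* (-0.75, adjusted p = 0.0174), where 7.43% of all genes were lower. *Cntfr* passed as higher (1.53, adjusted p = 0.0234), for which the share of all genes is not given here. With AA+2i against DMSO, where 19.6% of all genes passed in either direction, *Osm* was higher (2.43, adjusted p = 0.0283) and *Cntfr* lower (-1.42, adjusted p = 0.0394) beside *Osmr*. Levels were low, with *Osm* at 0.07 to 0.38 TPM in DMSO and 0.52 to 1.34 in AA+2i. *Cntfr* was at 0.06 to 1.24 and 0.16 to 0.61 TPM. Without the correction neither passed by edgeR (adjusted p = 0.0744 and 0.601). DESeq2 called *Osm* between AA+2i and DMSO. The median log2 difference of the list with 2i was -0.25, and -0.55 with the correction.

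Of 10 JAK kinases and other STATs, 9 were tested and 0 changed in any comparison by edgeR without the GC correction. Over all tested genes that fit called from 0.0149% (interaction) to 8.34% (AA+2i against DMSO). A count of 0 in so short a list is therefore no result about its genes. An unadjusted p under 0.05 was reached by 16.1% of all genes with 2i and by 24.8% with AA+2i against DMSO. With 2i 0 were under an unadjusted p of 0.05 and 0 passed by DESeq2, and with AA+2i against DMSO these counts were 2 and 2, *Stat2* and *Stat5a* both times. *Stat2* also passed with the GC correction between AA+2i and DMSO (log2 0.53, adjusted p = 0.0254), as 19.6% of all genes did in either direction. All 13 other SOCS, phosphatase and PIAS genes were tested, and 0 changed in any comparison by edgeR without the correction or by DESeq2. Under an unadjusted p of 0.05 were 0 with 2i and 2, *Socs4* and *Pias1*, with AA+2i against DMSO. With the correction *Cish*, a STAT5 target of the SOCS family, was lower with AA+2i than with DMSO (log2 -0.86, adjusted p = 0.0111, edgeR) and than with AA (log2 -0.76, adjusted p = 0.0244). Of all genes 10.7% and 8.51% were called lower there. The median log2 differences of these lists with 2i were 0.08 and -0.1.

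Among 19 other STAT3 targets 17 were tested, of which 2 rose and 0 fell with 2i by edgeR, beside 1.59% of all genes higher, and DESeq2 called *Ccnd1* too. *Tcfcp2l1*, a pluripotency transcription factor gene that LIF induces, rose from a TPM of 8.98 ± 1.19 to 35.6 ± 12 (log2 change 2.14, SE 0.3, adjusted p = 0.00267, edgeR). *Pim2*, a relative of *Pim1* and *Pim3*, rose from 126 ± 38.3 to 258 ± 31.4 (log2 change 1.19, SE 0.28, adjusted p = 0.0365), and missed the threshold with the GC correction (0.9, adjusted p = 0.0504). Of the 3 Pim genes, *Pim1* fell, *Pim2* rose and *Pim3* did not pass with 2i without the correction, whereas with it *Pim3* was the one that passed. Without replicate A, B or C *Pim2* was at 1.16, 0.89 and 1.57 (adjusted p = 0.131, 0.642 and 0.0678), and *Tcfcp2l1* at 2.05, 2.04 and 2.32 (adjusted p = 0.0107, 0.207 and 0.0592). With the GC correction *Tcfcp2l1* was at 2.26 (adjusted p = 1.09e-05) and passed without A, B or C too (0.00104, 0.0117 and 0.00131).

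When 2i was added to AA, *Tcfcp2l1* rose again, from 16.1 ± 5.2 to 53.6 ± 17.2 (log2 change 1.9, SE 0.29, adjusted p = 0.00367, edgeR), in libraries not used for 2i against DMSO. The cyclin D1 gene *Ccnd1* fell in the same comparison, from 155 ± 11.7 to 79.7 ± 10.1 (log2 change -0.79, SE 0.16, adjusted p = 0.0152). Without replicate B these were 1.72 (adjusted p = 0.199) and -0.69 (0.411), and without C 1.99 (0.0636) and -0.72 (0.261). With the GC correction *Tcfcp2l1* was at 2.06 (adjusted p = 1.64e-05) and passed without A, B or C too (0.000944, 0.0127 and 0.00115). *Ccnd1* was at -0.79 (adjusted p = 0.00151), a call lost without B (0.0747). Uncorrected, from DMSO to AA+2i, *Tcfcp2l1* rose (2.74, adjusted p = 0.000499) and *Ccnd1* fell (-1.01, adjusted p = 0.00373), where 8.34% of all genes passed. Without B both calls were lost (0.0988 and 0.204), and that of *Ccnd1* without C too (0.0871). With 2i against DMSO *Ccnd1* stood at 110 ± 6.04 and 186 ± 21.1 (log2 -0.56, adjusted p = 0.0824), and passed with the GC correction (adjusted p = 0.0089) and by DESeq2. The list also holds *Klf4* and *Myc*, whose counts can include transgene RNA, and neither passed by edgeR without the correction. Its median log2 difference with 2i was -0.12.

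Because *Bcl3* is a relative of the IkB genes, 9 genes of the NF-kB and IkB families were tested too. Of these, 0 changed in any comparison by edgeR, with or without the GC correction, with 0 under an unadjusted p of 0.05 and 0 by DESeq2. Beside the 0.0149% to 8.34% of all tested genes called without the correction, 0 of 9 is no result about this list. The median log2 difference of AA+2i from DMSO was 0.5 before and 0.04 after the correction.

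**Figure D4:**
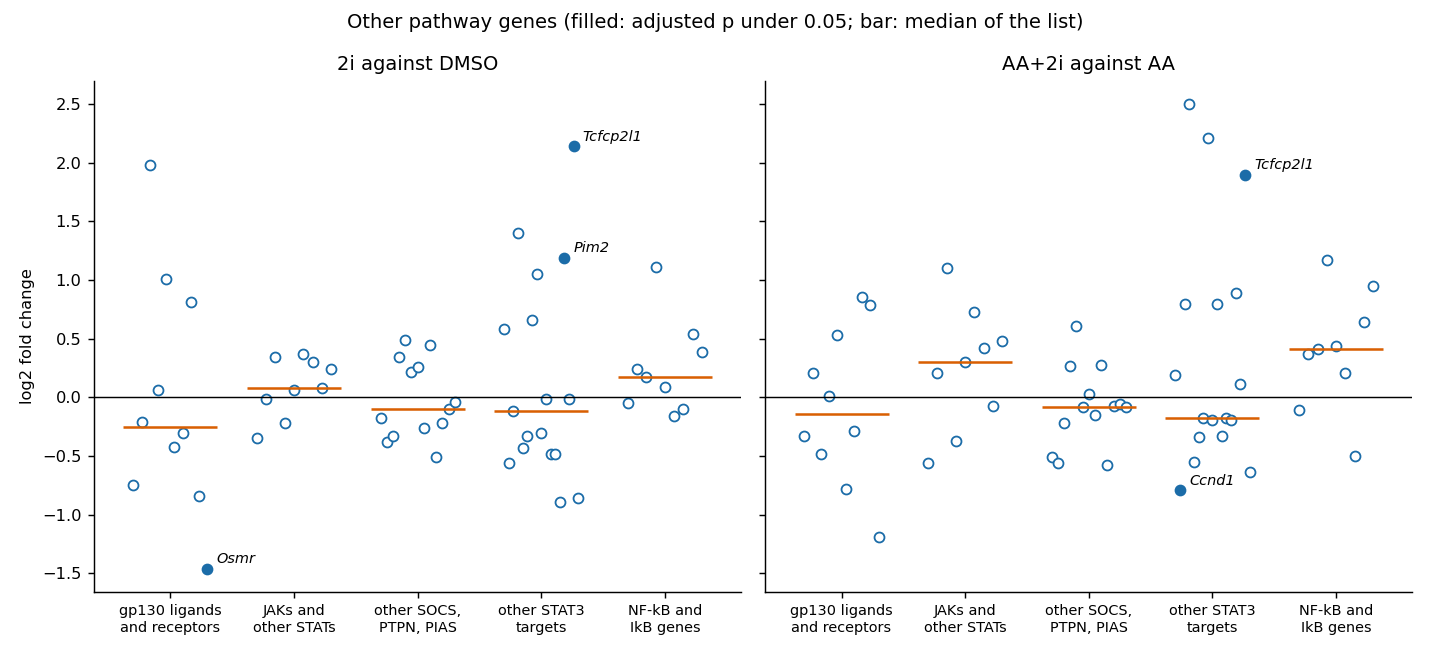
Log2 fold change (vertical axis) of each tested gene of 5 lists with 2i against DMSO and with AA+2i against AA, without the GC correction. Filled points passed at an adjusted p under 0.05 (edgeR), and bars are list medians. *Osmr* at -1.46 and *Tcfcp2l1* at 2.14 are the named extremes on the left, and the list medians lie between -0.25 and 0.41.

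The genes whose log2 CPM ran most like that of *Socs2* over the 12 libraries were *Gm8267* (Pearson's r = 0.975), *4930503E14Rik* (0.974) and *Mtmr7* (0.973), and *Mtmr7* was also the closest after removal of the GC curves (0.972). For *Pim1* they were *Gm13298* (0.957), *Angptl2* (0.947) and *Pde9a* (0.947), and after removal *Rmnd5a* (0.972), *Tead4* (0.969) and *AI480653* (0.962), none of which was among the first. These coefficients were picked as the highest of 13400 genes, share the libraries and their depth and GC curves, and are given as a description.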

How the data were processed

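RNA was sequenced from pre-iPSCs of 4 conditions with 3 replicates each, 12 libraries in all, with the Illumina TruSeq RNA kit. The authors trimmed and filtered reads, aligned them with Bowtie to the RefSeq genes of mm9 and estimated expression with RSEM 1.2.4, which can divide a read among genes that share it. The deposited expected counts are not normalized, and the deposited TPM are scaled by the authors per length and library. The deposited FPKM, which the authors also computed with RSEM, served only to recompute 1 malformed TPM cell of a gene not described here.

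After rounding, the counts of the 13400 genes that reached 10 in 3 or more libraries were fitted in R 4.3.3 by the quasi-likelihood method of edgeR 4.0.16, with RLE factors and a mean per condition. A gene was called where the Benjamini-Hochberg adjusted p was below 0.05. Each SE was derived from the F statistic, as the ratio of the absolute log2 change to its root. The study's EB-seq test was not used here. Alternatives were TMM factors, DESeq2 1.42.0, limma 3.58.1 on TPM (log2, pseudocount 1), removing the filter or asking for 10 counts everywhere, only the groups compared, the replicate letter as a block, the GC correction, both together, and leaving out each letter, also with the GC correction, which was added after the data were seen. The correction smoothed, per library, how far log2 CPM (prior count 2) lay from the mean against the GC content of the longest coding GENCODE vM1 transcript (loess, span 0.4), known for 13303 of the tested genes (99.28%), and entered the curve as an offset. The scripts were tested on simulated data. Promoter windows are from RefSeq (GRCm38.p6). Figures were drawn with matplotlib 3.10.9.

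All 10 members are named. From each list up to 4 genes called in a comparison are named, in order of adjusted p, and, for each member called, the 3 genes most correlated with it. Single markers, and genes named beside a zero count or for the GC correction, were chosen after their values were seen. The members, lists and tests were chosen with earlier results of these data known. The labels call the replicates biological. Counting error is small for all genes but Socs1, so that p-values rest on the spread between the 3 libraries of a condition. Except in the fit of only the groups compared, this spread was estimated over all 4 conditions together.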

Additional observations from a re-analysis of the deposited data

How the results depend on the processing

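Of the 10 genes, 2 were called with 2i against DMSO. The count was 1 with TMM factors, 1 without a count filter, 1 with at least 10 counts in every library and 0 in a fit of only the groups compared, and from 0 to 1 with a letter left out. The edgeR fit with a mean per condition did not take the letters as pairs, because the labels do not say whether they pair the libraries. Same-letter pairs of libraries had deviations correlated at a mean r of 0.412 (lowest -0.566, 15 of 18 over 0.1). For different letters the mean r was -0.202 (9 of 36 over 0.1), and 11 of 12 libraries were closest to one of their own letter. Libraries of a letter thus tended to deviate alike, which only the fits with the replicate block take into account. With the replicate block the counts were 4 with 2i (*Il6st*, *Lifr*, *Pim1* and *Socs2*), 3 with AA+2i against DMSO (*Bcl3*, *Il6st* and *Socs1*) and 1 with AA+2i against AA (*Pim1*). The adjusted p was 0.0497 for *Lifr* and 0.0437 for *Il6st* with 2i, and 0.00409, 0.0267 and 0.048 for *Il6st*, *Bcl3* and *Socs1* (1.85) with AA+2i against DMSO. With the GC correction they were 2 with AA+2i against DMSO, 1 against AA and 1 against 2i, and with the correction and the replicate block 2 with AA, 5 with 2i and 4, 3 and 2 with AA+2i against DMSO, AA and 2i, among them *Pim1* against DMSO (adjusted p = 0.00557) and AA (0.00798) and *Socs1* against 2i (1.31, 0.0148). DESeq2 called 1 with AA+2i against AA. The share of all tested genes called with the block or by DESeq2 is not given here. Their counts can therefore not be set against it and are no result about the 10 genes. Leaving out a letter gave 0 to 1 with AA+2i against DMSO, 0 with AA+2i against AA and 0 to 1 with AA+2i against 2i. Of 50 differences (10 genes in 5 comparisons), 6 in 4 genes turned sign with the GC correction, of which 1 was called, *Pim3* with AA+2i against DMSO. They include *Socs1* with 2i (0.38 to -0.51), *Bcl3* with AA+2i against AA (0.73 to -0.08), and *Socs3* with AA+2i against DMSO (0.73 to -0.05) and AA (0.24 to -0.26). The 18 gene results followed through all alternatives were those that passed in at least 1 fit, and of these 2 turned. *Socs3* with 2i, at 0.11, was -0.35 with the GC correction, -0.34 with the block too, and between -0.38 and 0.46 with a letter left out. *Pim3* with AA+2i against DMSO, at 0.11, was -0.91, -0.92 and between -1.35 and 0.52. *Socs2* with 2i passed in 11 of 15 alternatives (-1.27 to -0.87) and *Pim1* in 4 of 15 (-2.02 to -0.91). Over 18 gene results, 214 alternative values kept direction and side of the threshold, 25 newly passed, 15 no longer passed and 14 turned. Apart from *Socs2* and *Pim1* with 2i, these results were followed because an alternative passed, so that passes were built into the counts. Results that passed in no fit were left out. On log2(TPM + 1) the median of all genes shifted to -0.13 with 2i. The causes were not tested.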
